A study of Mus musculus with 16 samples.

Results

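Livers of Nrf2-null mice given CDDO-Me were set against livers of Nrf2-null mice left untreated, which asks what the drug, with its solvent and injections, changes when NRF2 is missing. The members are the 8 Nrf2-null libraries of 16 in all, taken by the genotype and treatment in their labels. KO CDDO-Me (4 libraries) is C57BL/6 liver of genotype Nrf2-/- from mice that received 3 mg/kg CDDO-Me, dissolved in DMSO, into the peritoneum 24 h and 1 h before partial hepatectomy. KO untreated (4 libraries) is liver of the same strain and genotype from mice labelled untreated, which by the treatment protocol received neither drug nor DMSO. In both groups the tissue is the day 0 liver, removed at the operation, so no regenerating tissue is included. The remaining 8 libraries are C57BL/6 wild-type liver, 4 from mice given CDDO-Me (WT CDDO-Me) and 4 from mice given DMSO (WT DMSO) on the same schedule, and they enter here as a second measure of the drug response and of the spread. Because the KO controls had no injection, the effects of drug, solvent and handling cannot be told apart in the KO contrast. The series text gives 4 animals per group. The sources used here give no age, sex, date or batch and no map of the null allele. The protocol puts the operation 24 h after the first injection and 1 h after the last.

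NRF2, encoded by Nfe2l2, is a transcription factor held at low level by KEAP1, which marks it for destruction until oxidants or electrophiles modify KEAP1's cysteines. NRF2 then drives enzymes of glutathione synthesis, quinone reduction and drug conjugation. CDDO-Me, also called bardoxolone methyl, belongs to the synthetic triterpenoids, and its electrophilic groups react with KEAP1. In cultured cells it is also known to act on other cysteine-bearing proteins, among them kinases of the NF-kB and STAT3 pathways. The liver's other fast transcriptional programme is the acute phase response, in which interleukin-6 and interleukin-1 make hepatocytes secrete serum amyloid A, haptoglobin, fibrinogen and related plasma proteins while many drug-metabolising enzymes are turned down. The contrast in Nrf2-null liver shows which of these programmes differ between treated and untreated animals that lack NRF2.

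Total counts were 21432833 to 33827313 per library in KO CDDO-Me and 14019793 to 24194378 in KO untreated. Levels are CPM, read counts scaled to the TMM-adjusted library size, a scale on which values of one gene can be compared between libraries but not values of different genes. Albumin, which marks hepatocytes, lay at 49993 to 69514 CPM in KO CDDO-Me and 32316 to 85259.6 CPM in KO untreated. The labelled genotype was looked at through Nfe2l2 and its target Nqo1, a quinone reductase. Nfe2l2 had 19.8, 15.7, 20.99 and 18.98 CPM in KO CDDO-Me 1 to 4, against 51.7, 35.5, 19.9 and 21.3 CPM in KO untreated 1 to 4, and WT libraries held 36.6 to 45.5 CPM in WT CDDO-Me and 42.8 to 74.9 CPM in WT DMSO. Its reads check the label only as far as they come from the deleted part. Nqo1 had 0.766 to 1.98 CPM in KO CDDO-Me and 0.434 to 1.19 CPM in KO untreated, and WT libraries held 30.7 to 45.9 CPM in WT CDDO-Me and 3.21 to 4.22 CPM in WT DMSO. KO untreated 1 and 2 stood apart from the other 6 KO libraries before any group was compared. On the first principal component of the 8 libraries (53.2% of the variance of 2000 genes) they scored −59.07 and −44.71, and the other 6 scored 3.51 to 26.9. Genes annotated as sense-intronic or TEC (a GENCODE class of loci that await experimental proof) can collect unspliced RNA. They took 0.967% and 0.673% of the counts of KO untreated 1 and 2. The share was 0.186% to 0.327% in KO CDDO-Me and 0.249% and 0.212% in KO untreated 3 and 4. Over whole groups this share averaged 0.251% ± 0.059 in KO CDDO-Me and 0.525% ± 0.361 in KO untreated (SD, n = 4 each, two-sided exact permutation p = 0.286, smallest possible 0.0286). Shares of mitochondrially encoded RNA (2.95% and 3.34%), nuclear ribosomal RNA (0.00442% and 0.0242%) and haemoglobin RNA (0.0607% and 0.0364%, KO CDDO-Me first in each) had exact permutation p of 0.114, 0.0857 and 0.257. Results are therefore given with and without KO untreated 1 and 2 where these libraries bear on them. Libraries are called intron-rich below for a high share of counts in sense-intronic and TEC genes. Intronic reads as such were not counted.

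**Figure D1:**
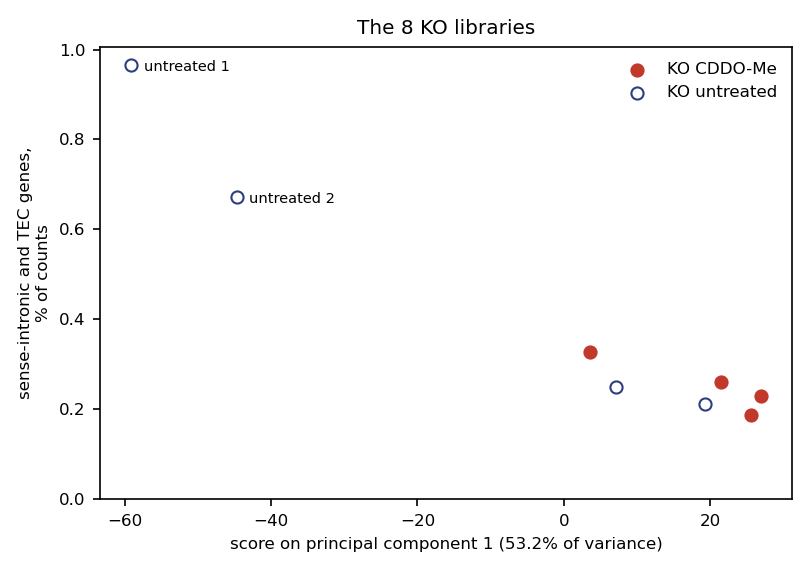
Share of counts in sense-intronic and TEC genes (vertical axis, %) against the score on the first principal component (horizontal axis, from log2 CPM of 2000 genes) for the 4 KO CDDO-Me libraries (filled) and the 4 KO untreated libraries (open). KO untreated 1 and 2 sit at the upper left with 0.967% and 0.673%, and the other 6 libraries lie at 0.186% to 0.327%.

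Few genes passed the test. Of 16206 genes, the quasi-likelihood test of edgeR (adjusted by Benjamini-Hochberg) called 21 at an adjusted p under 0.05 (0.13% of the genes tested), 17 of them higher in KO CDDO-Me (0.105%) and 4 lower (0.0247%). At an unadjusted p under 0.05 there were 2564 genes (15.8%), 1012 higher (6.24%) and 1552 lower (9.58%). In each of the 21 called genes, the 4 KO CDDO-Me libraries and the 4 KO untreated libraries did not overlap, and over all genes tested 5.98% had every KO CDDO-Me library above and 4.5% every KO CDDO-Me library below every KO untreated library. The genes that rose fall into secreted plasma and matrix proteins, inflammatory and stress-response genes, small-molecule enzymes, and genes best known from blood cells. The 4 that fell are an RNA-binding protein, a nucleoside phosphorylase, a cytochrome P450 and a small nuclear RNA.

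**Figure D2:**
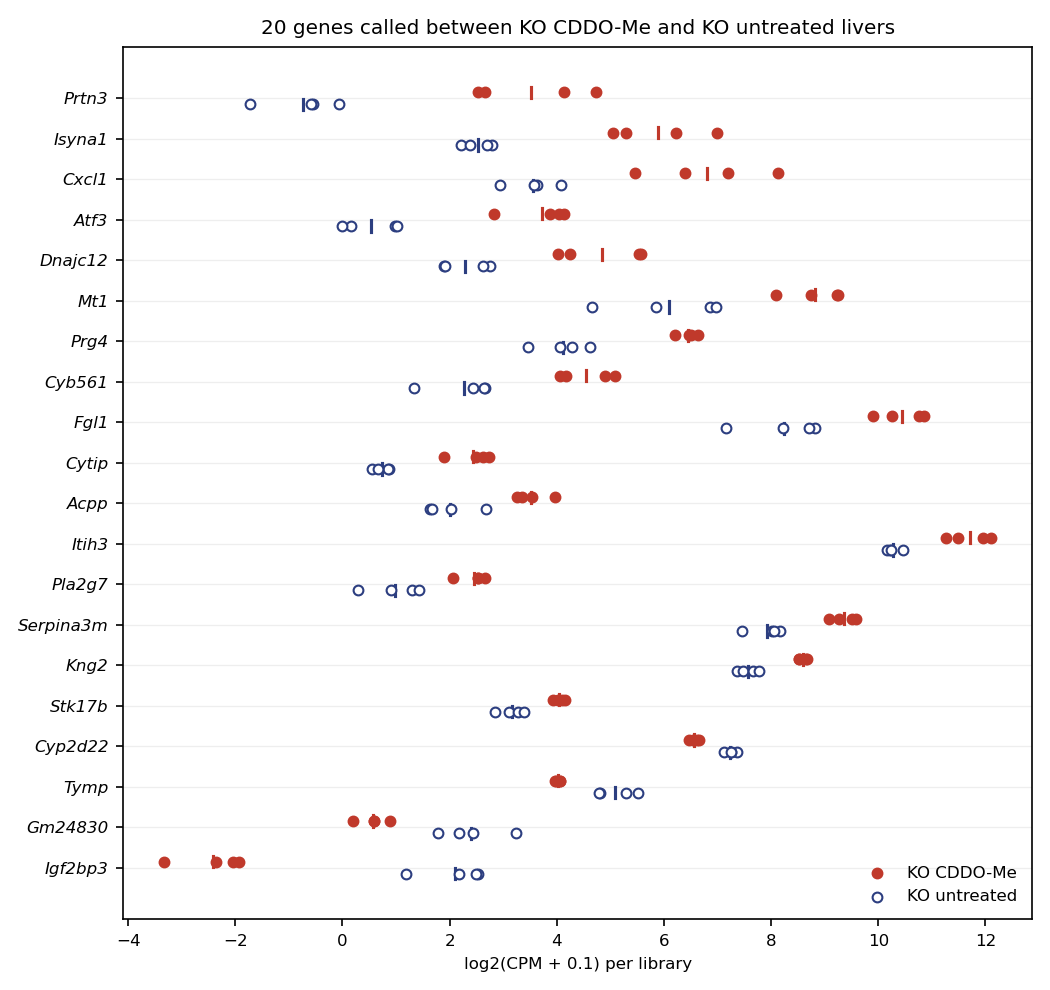
log2(CPM + 0.1) of each library for 20 of the 21 genes called between KO CDDO-Me (filled points, upper line of each gene) and KO untreated (open points, lower line), with a bar at each group's mean of 4 libraries. The upper 16 genes are higher and the lower 4 lower in KO CDDO-Me, and in none of the 20 do the libraries of the groups overlap.

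Among secreted proteins, Itih3, Serpina3m, Kng2, Fgl1 and Prg4 rose. Itih3 (chromosome 14, 30908572 to 30923760, GRCm38, minus strand) encodes a heavy chain of the inter-alpha-trypsin inhibitor, which binds hyaluronan. It had 3992, 4384, 2887 and 2449 CPM in KO CDDO-Me 1 to 4, against 1184, 1144, 1206 and 1406 CPM in KO untreated 1 to 4. Every treated liver was above every untreated one, with KO CDDO-Me 1 and 2 the highest, and the log2 fold change was 1.47 ± 0.24 (SE, edgeR adjusted p = 0.0212). Serpina3m, a serine protease inhibitor of the antichymotrypsin cluster, had 539.7, 770.4, 617 and 726 CPM in KO CDDO-Me 1 to 4, against 258, 176, 288 and 265 CPM in KO untreated 1 to 4. Its log2 fold change was 1.43 ± 0.22 (SE, edgeR adjusted p = 0.0121). Serpina3m has close paralogs beside it, and reads could be split among them in counting. Its neighbour Serpina3k, whose annotated span overlaps it, had a log2 change of −0.03 (edgeR adjusted p = 0.971).

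Kng2, a precursor of the vasoactive kinins, was the tightest of these genes, with 367, 402, 368 and 406 CPM in KO CDDO-Me 1 to 4, against 166, 178, 201 and 219 CPM in KO untreated 1 to 4. The means were 386 ± 20.96 CPM in KO CDDO-Me and 191 ± 24.03 CPM in KO untreated (SD, n = 4 each), a 2.02-fold difference (log2 1.01 ± 0.15, edgeR adjusted p = 0.0119). Fgl1, a fibrinogen-like protein that hepatocytes secrete and that acts as a ligand of the inhibitory receptor LAG3, had 1739, 1847, 1216 and 950.4 CPM in KO CDDO-Me 1 to 4, against 143, 299.8, 454 and 419 CPM in KO untreated 1 to 4. Its log2 fold change was 2.13 ± 0.37 (SE, edgeR adjusted p = 0.0282). KO untreated 1, with the highest share of sense-intronic and TEC counts, was the lowest of the 8. Prg4, the lubricating glycoprotein lubricin, had 90.6, 99.8, 74.1 and 88.4 CPM in KO CDDO-Me 1 to 4, against 10.9, 16.6, 24.4 and 19.5 CPM in KO untreated 1 to 4. Its treated libraries lay close together and its log2 fold change of 2.304 ± 0.31 (SE, edgeR adjusted p = 0.00723) held at 2.03 (adjusted p = 0.046) when the intron-rich libraries of both genotypes (KO untreated 1 and 2, WT DMSO 1 and 2) were left out.

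Inflammatory and stress-response genes that rose were Cxcl1, Atf3 and Mt1. Their proximal promoters are shown with 3 of 7 motifs searched, those of factors known to act in inflammation, the integrated stress response and metal load. The windows run from 250 bases before to 50 bases after the annotated start (RefSeq, GRCm38.p6), 5′ to 3′ on the gene's strand, and a window was on hand for 13 of the 20 called genes named here. Capitals mark the kB motif (GGGA and TTCC with 2 bases of any kind between them) in Cxcl1, the metal response motif TGCACNC or TGCGCNC in Mt1, and the ATF and CRE motif TGACGTNA in Atf3, each searched on both strands.
Cxcl1, chr5:90890995-90891294, plus strand: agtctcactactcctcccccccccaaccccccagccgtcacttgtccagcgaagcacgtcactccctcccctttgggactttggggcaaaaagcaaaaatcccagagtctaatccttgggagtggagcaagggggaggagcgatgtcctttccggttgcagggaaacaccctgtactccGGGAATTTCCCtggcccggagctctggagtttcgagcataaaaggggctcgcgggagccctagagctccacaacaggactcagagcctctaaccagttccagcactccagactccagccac
Atf3, chr1:191183284-191183583, minus strand: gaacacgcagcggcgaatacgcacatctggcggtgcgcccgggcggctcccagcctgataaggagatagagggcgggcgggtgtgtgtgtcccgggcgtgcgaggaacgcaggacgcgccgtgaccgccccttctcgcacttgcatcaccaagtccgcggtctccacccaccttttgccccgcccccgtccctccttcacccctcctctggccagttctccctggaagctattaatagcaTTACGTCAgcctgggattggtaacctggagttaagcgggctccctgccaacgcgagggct
Mt1, chr8:94178839-94179138, plus strand: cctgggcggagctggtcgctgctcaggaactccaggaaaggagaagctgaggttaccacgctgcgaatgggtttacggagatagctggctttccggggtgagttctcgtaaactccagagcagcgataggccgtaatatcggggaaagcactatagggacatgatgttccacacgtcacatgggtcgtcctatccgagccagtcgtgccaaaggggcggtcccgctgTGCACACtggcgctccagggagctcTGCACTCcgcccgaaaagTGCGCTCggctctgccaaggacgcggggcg
In Cxcl1 the motif matches on both strands in overlapping stretches, the first of them starting 71 bases before the annotated start, and 1.47% of the 32851 windows of the same length hold the motif. The Atf3 match starts 10 bases before the RefSeq start, and 2.93% of windows hold that motif. This window lies inside the GENCODE span of Atf3 (chromosome 1, 191170296 to 191218039), away from its 5′ end. No window at that end was searched. Mt1 has 3 matches, the first starting 23 bases before the annotated start, and 25.7% of windows hold at least 1. Among the 13 called genes with a window, these motifs occurred in 1, 1 and 5 genes, and the Atf3 window also holds a metal response match. Of 4 further motifs searched in the 13 windows, the C/EBP motif TTGCNNAA (10.8% of all windows) and the antioxidant response core TGACNNNGC (12.4%) occurred in 2 genes each, and the STAT motif TTCCNGGAA (1.15%) and the AP-1 motif TGANTCA (7.81%) in 0. A match is only a description of the letters.

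Cxcl1, a chemokine that attracts neutrophils, had 43.95, 84.3, 146 and 279 CPM in KO CDDO-Me 1 to 4, against 12.3, 16.8, 7.598 and 11.8 CPM in KO untreated 1 to 4. The treated libraries spanned a wide range, with KO CDDO-Me 4 the highest, yet none came down to the untreated level, and the log2 fold change was 3.51 ± 0.56 (SE, edgeR adjusted p = 0.0158). Atf3, a transcription factor of the stress and immediate early response, had 7.001, 17.4, 14.5 and 16.3 CPM in KO CDDO-Me 1 to 4, against 1.88, 1.01, 0.897 and 1.92 CPM in KO untreated 1 to 4. It was low in all 4 untreated livers and its log2 fold change was 3.27 ± 0.58 (SE, edgeR adjusted p = 0.03). Mt1, a metallothionein that binds zinc and copper, had 607, 600.3, 273 and 428 CPM in KO CDDO-Me 1 to 4, against 25.04, 57.96, 116 and 125 CPM in KO untreated 1 to 4, with a log2 change of 2.56 ± 0.45 (SE, edgeR adjusted p = 0.0282). Its companion Mt2 had 481, 427, 293 and 399 CPM in KO CDDO-Me 1 to 4, against 5.54, 19.5, 80.6 and 70.8 CPM in KO untreated 1 to 4. The groups did not overlap for Mt2 either, and its log2 fold change was 3.18 ± 0.63 (edgeR adjusted p = 0.0682). The intron-rich KO untreated 1 and 2 were the lowest libraries for both metallothioneins, and without the intron-rich libraries of both genotypes neither was called (Mt1 2.003, edgeR adjusted p = 0.0993, and Mt2 2.42, adjusted p = 0.058). In the KO libraries without untreated 1 and 2, Mt2 was called at 2.42 (adjusted p = 0.0127) and Mt1 at 1.998 (adjusted p = 0.0499).

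Isyna1 had one of the 2 lowest adjusted p of the comparison. It encodes inositol-3-phosphate synthase, the enzyme that commits glucose 6-phosphate to inositol. It had 74.5, 127, 39.3 and 32.9 CPM in KO CDDO-Me 1 to 4, against 4.52, 5.12, 6.84 and 6.39 CPM in KO untreated 1 to 4. The means were 68.5 ± 43.3 CPM in KO CDDO-Me and 5.72 ± 1.08 CPM in KO untreated (SD, n = 4 each). The highest treated library was KO CDDO-Me 2, and the log2 fold change was 3.58 ± 0.44 (SE, edgeR adjusted p = 0.003). Of the 13 tested genes of inositol synthesis and osmolyte handling, it alone was called, 9 had positive log2 fold changes and the median was 0.07. Among its pathway neighbours Cdipt, which builds phosphatidylinositol from inositol, had 25.4 to 28.2 CPM in KO CDDO-Me and 13.8 to 29.1 CPM in KO untreated and was not called (log2 0.33 ± 0.22, edgeR adjusted p = 0.427).

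Dnajc12, a J-domain co-chaperone of the aromatic amino acid hydroxylases, had 47.6, 46.05, 18.96 and 16.2 CPM in KO CDDO-Me 1 to 4, against 3.61, 3.67, 6.65 and 6.05 CPM in KO untreated 1 to 4. KO CDDO-Me 1 and 2 were more than 2-fold above KO CDDO-Me 3 and 4, and all were above the untreated livers (log2 2.68 ± 0.40, edgeR adjusted p = 0.0119). Cyb561, an ascorbate-dependent membrane reductase, had 33.7, 29.9, 16.5 and 17.8 CPM in KO CDDO-Me 1 to 4, against 2.44, 5.31, 6.18 and 6.14 CPM in KO untreated 1 to 4, with a log2 change of 2.28 ± 0.40 (SE, edgeR adjusted p = 0.0282). Pla2g7, the platelet-activating factor acetylhydrolase, had 4.09, 5.696, 5.703 and 6.19 CPM in KO CDDO-Me 1 to 4, against 1.12, 1.79, 2.36 and 2.5996 CPM in KO untreated 1 to 4 and a log2 change of 1.46 ± 0.24 (SE, edgeR adjusted p = 0.0163). Acpp, a secreted acid phosphatase best known from prostate, had 11.6, 9.48, 15.5 and 10.04 CPM in KO CDDO-Me 1 to 4, against 3.96, 6.27, 3.02 and 3.07 CPM in KO untreated 1 to 4, with a log2 change of 1.51 ± 0.26 (SE, edgeR adjusted p = 0.0282).

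Prtn3, Cytip and Stk17b are best known from blood cells. Prtn3, proteinase 3 of neutrophil granules, had 17.6, 26.4, 6.21 and 5.64 CPM in KO CDDO-Me 1 to 4, against 0.203, 0.579, 0.566 and 0.852 CPM in KO untreated 1 to 4. Its log2 fold change of 4.63 ± 0.65 (SE, edgeR adjusted p = 0.00928) was the highest among the called genes. Of 25 listed neutrophil and monocyte markers, 13 passed the filter on low counts and Prtn3 alone was called. Of the 13, 10 had positive log2 fold changes and the median was 0.66. In 6 every treated library was above and in 1 below every untreated one, beside 5.98% and 4.5% of all genes tested. Camp, Ctsg and Fcnb, which mark granulocytes and their precursors, had 0 counts in all 8 libraries. Mpo, myeloperoxidase, had 0.0319 to 0.138 CPM in KO CDDO-Me and 0.189 to 0.338 CPM in KO untreated, Elane, neutrophil elastase, 0.0319 to 0.144 CPM in KO CDDO-Me and 0 in each KO untreated library, and S100a8, a calprotectin subunit, 0.324 to 0.718 CPM in KO CDDO-Me and 0.0965 to 0.256 CPM in KO untreated. Summed over the list, the level was 160.0 to 739 CPM in KO CDDO-Me and 62.2 to 103 CPM in KO untreated. Most of that sum was Lcn2, lipocalin 2, a marker that hepatocytes also make (615, 692, 145 and 139.5 CPM in KO CDDO-Me 1 to 4, 49.5, 90.01, 93.3 and 85.7 CPM in KO untreated 1 to 4). Without Lcn2 and Prtn3 the other 23 summed to 12.8 to 22.9 CPM in KO CDDO-Me and 8.92 to 12.5 CPM in KO untreated. In bulk tissue, more cells of a type and more RNA per cell cannot be told apart. Cytip, a scaffold protein of leukocytes, had 3.602, 6.03, 6.56 and 5.54 CPM in KO CDDO-Me 1 to 4, against 1.37, 1.74, 1.699 and 1.49 CPM in KO untreated 1 to 4, and its log2 fold change was 1.78 ± 0.27 (SE, edgeR adjusted p = 0.0119). Stk17b, a kinase of lymphoid cells, had 16.1, 17.6, 15.2 and 16.95 CPM in KO CDDO-Me 1 to 4, against 7.11, 8.49, 9.63 and 10.4 CPM in KO untreated 1 to 4, and its log2 fold change was 0.88 ± 0.14 (SE, edgeR adjusted p = 0.0121). Cd3e, of T cells, and Cd79a, of B cells, were near 0, at 0.138 to 0.574 CPM in KO CDDO-Me and 0.241 to 0.559 CPM in KO untreated and at 0.0637 to 0.172 CPM in KO CDDO-Me and 0.0944 to 0.213 CPM in KO untreated.

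Igf2bp3 fell further than any other called gene. It encodes an oncofetal RNA-binding protein that stabilises growth-related transcripts and is scarce in adult liver. The counts were 4, 3, 3 and 0 in KO CDDO-Me 1 to 4, and 43, 117, 93 and 129 in KO untreated 1 to 4. In CPM these are 0.162, 0.144, 0.0956 and 0 in KO CDDO-Me, against 2.18, 5.65, 4.39 and 5.497 in KO untreated, and its log2 fold change was −5.46 ± 0.63 (SE, edgeR adjusted p = 0.003). WT livers were as low as the treated KO livers, at 0 to 0.124 CPM in WT CDDO-Me and 0.0459 to 0.139 CPM in WT DMSO. The 4 KO untreated libraries were thus the only ones of 16 above 0.162 CPM. Malsu1, which overlaps it on the opposite strand, averaged 10.3 CPM in KO CDDO-Me and 10.3 CPM in KO untreated (log2 0.00, edgeR adjusted p = 0.988).

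Tymp, thymidine phosphorylase, had 16.6, 16.6, 15.5 and 15.7 CPM in KO CDDO-Me 1 to 4, against 45.7, 38.9, 27.7 and 27.4 CPM in KO untreated 1 to 4. It fell by 1.12 on the log2 scale (SE 0.17, edgeR adjusted p = 0.0121), and the fall was 0.76 (adjusted p = 0.0693) without the intron-rich libraries. KO untreated 1 and 2 were its 2 highest libraries. Cyp2d22, a cytochrome P450, had 88.9, 92.7, 97.96 and 100.2 CPM in KO CDDO-Me 1 to 4, against 164, 152, 139 and 152 CPM in KO untreated 1 to 4, with a log2 change of −0.67 ± 0.11 (SE, edgeR adjusted p = 0.0246). Gm24830, annotated as a small nuclear RNA, had 1.74, 1.05, 1.402 and 1.41 CPM in KO CDDO-Me 1 to 4, against 9.29, 5.31, 4.39 and 3.32 CPM in KO untreated 1 to 4. It fell by 1.98 on the log2 scale (SE 0.37, edgeR adjusted p = 0.0472), and KO untreated 1 was again the highest. Small nuclear RNA genes have many copies, and reads of such copies can be assigned to the wrong one.

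The fold changes of the 21 genes were steadier than their calls. Isyna1, Igf2bp3 and Prg4 were called by edgeR when each of the 16 libraries was left out in turn, and all 21 kept their sign in all 16 of these fits. The other 18 lost the call in at least 1 fit, with highest adjusted p from 0.0563 (Prtn3, without KO untreated 2) to 0.185 (Gm24830, without KO CDDO-Me 2). Of the 21, 12, 5, 13 and 15 were still called without KO CDDO-Me 1, 2, 3 and 4, and 9, 4, 11 and 18 without KO untreated 1, 2, 3 and 4. Of the WT libraries, which enter through the spread, the scaling and the filter, leaving out WT CDDO-Me 2 and 3 left 15 and 16 called and leaving out WT DMSO 4 left 21, with 133 genes called in all. Without the 4 intron-rich libraries only Prg4 and Igf2bp3 of the 21 were called, and the log2 fold changes were 0.677 to 1.29 times those of all libraries. In the 8 KO libraries alone edgeR called 22 genes of 15478 (0.142%), 18 higher (0.116%) and 4 lower (0.0258%), 12 of them among the 21. Among the 10 others, Saa1, Saa2 and Saa4 were higher and Oasl2, Hamp2 and Ppargc1b, a coactivator of mitochondrial and lipid genes, were lower. Other fits called more or fewer genes over the whole table: DESeq2 162 higher (1%) and 136 lower (0.839%), edgeR without WT DMSO 4 73 higher (0.448%) and 60 lower (0.368%), and edgeR without the 4 intron-rich libraries 1 higher (0.0061%) and 3 lower (0.0183%). In the KO libraries without untreated 1 and 2, a fit added after the data were seen, 16 of 15939 genes were called higher (0.1%) and 66 lower (0.414%).

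The same drug in WT liver, measured against DMSO, gave another set of calls. In WT edgeR called 118 genes (0.728%), and 2 genes were called in both genotypes, Dnajc12 and Pla2g7, which is 9.52% of the KO calls and 1.69% of the WT calls. Pla2g7 had 11.2 to 13.99 CPM in WT CDDO-Me and 2.498 to 3.81 CPM in WT DMSO, a log2 fold change of 2.13 ± 0.24 in WT (edgeR adjusted p = 0.000113), beside 1.46 ± 0.24 in KO. Dnajc12 had 23.7 to 47.3 CPM in WT CDDO-Me and 5.73 to 14.7 CPM in WT DMSO, a log2 fold change of 1.93 ± 0.38 (adjusted p = 0.0275), beside 2.68 ± 0.40 in KO. Of the 21 genes called in KO, 17 had the same sign in WT, 20 had the larger absolute log2 fold change in KO, and 7 reached an unadjusted p under 0.05 in WT. The genes were selected for their change in KO, which favours a larger value there. The same counts were not made over all genes tested, so those for the 21 are a description only. The difference between the responses (KO response minus WT response) was itself called for 1 of the 21, Gm24830, at −3.005 ± 0.51 (SE, edgeR adjusted p = 0.0175). Its WT libraries held 7.94 to 22.3 CPM in WT CDDO-Me and 3.67 to 8.12 CPM in WT DMSO. For the other 20, a difference between genotypes was not called, among them Isyna1 (2.07 ± 0.57, adjusted p = 0.216), Cxcl1 (3.77 ± 0.74, adjusted p = 0.0625) and Serpina3m (1.49 ± 0.31, adjusted p = 0.0767). Over all genes the test of the difference called 21 genes (0.13%), each with the lower response in KO and none with the higher response.

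**Figure D3:**
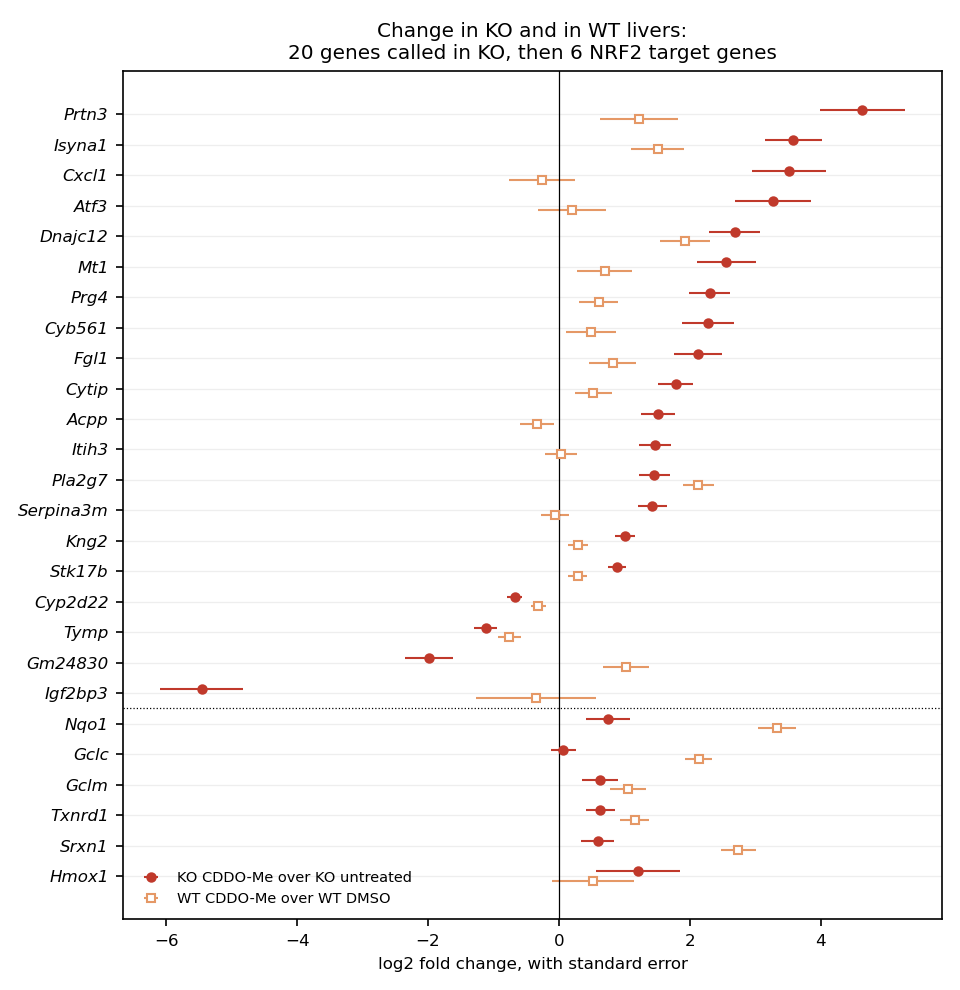
log2 fold change with its standard error in KO liver (CDDO-Me over untreated, filled circles) and in WT liver (CDDO-Me over DMSO, open squares) for 20 of the 21 genes called in KO and, below the dotted line, 6 NRF2 target genes. Most of the 20 lie farther from 0 in KO, with Pla2g7 the exception, in a set selected on the KO change, whereas Nqo1, Gclc and Srxn1 lie near 3.33, 2.13 and 2.74 in WT and at 0.75, 0.07 and 0.59 in KO.

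The levels in DMSO-injected WT livers give the KO values a second scale. For 7 of the 21 genes (Acpp, Atf3, Cxcl1, Igf2bp3, Mt1, Prg4 and Serpina3m) the KO CDDO-Me mean lay inside the range of the WT DMSO libraries and the KO untreated mean outside it. Cxcl1 was 42.9 to 275 CPM and Mt1 414 to 914 CPM in WT DMSO. For Cytip and Gm24830 it was the KO untreated mean that lay inside, and for the other 12, Isyna1, Dnajc12 and Prtn3 among them, neither mean did. Over all 16206 genes the KO CDDO-Me mean lay inside the WT DMSO range for 10655 and the KO untreated mean for 12308. Genotype, solvent and injection all differ between KO untreated and WT DMSO, so these positions are given as values only.

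**Figure D4:**
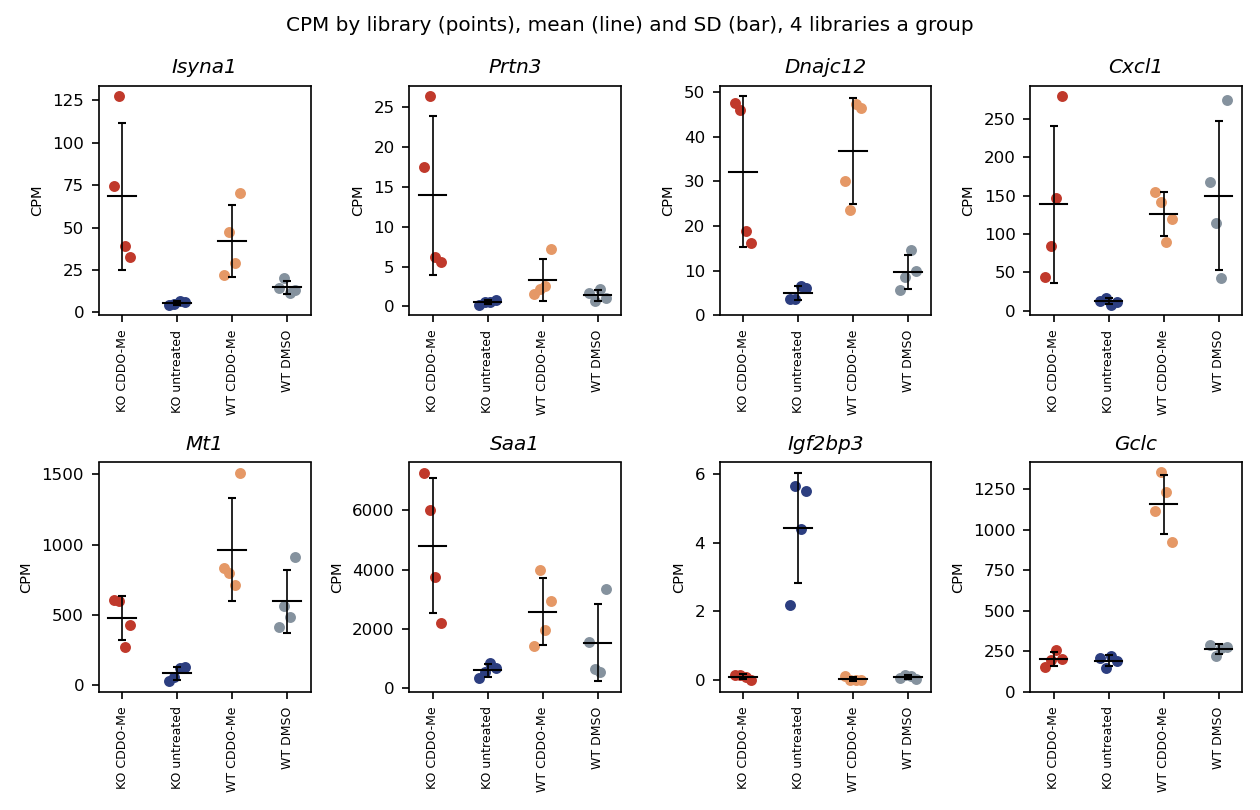
CPM of 8 genes in the 4 groups, with KO CDDO-Me left of KO untreated and WT CDDO-Me left of WT DMSO; points are libraries, lines means and bars SD (n = 4 each). Cxcl1, Mt1 and Saa1 are lower in KO untreated than in the other 3 groups on average, Igf2bp3 is above 0.162 CPM only in KO untreated, and Gclc is high only in WT CDDO-Me.

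Plasma proteins of the acute phase were higher in the treated KO livers over much of their list, but 2 of the 33 tested, Itih3 and Serpina3m, were called. Of the 33, 29 had positive log2 fold changes, with a median of 1.44, while over all genes tested 7381 of 16206 were positive and the median was −0.04. In 21 of the 33 every KO CDDO-Me library was above every KO untreated library, and in 1 every one was below. Over all genes tested these shares were 5.98% and 4.5%. Summed over the list, the levels were 87867 to 159536 CPM in KO CDDO-Me and 32685 to 71248 CPM in KO untreated. Serum amyloid A1 (Saa1) had 7267, 6016, 3755 and 2178 CPM in KO CDDO-Me 1 to 4, against 338, 527, 853 and 672 CPM in KO untreated 1 to 4, and its log2 fold change was 3.01 ± 0.57 (SE, edgeR adjusted p = 0.0529). Saa2 had 9688, 7419, 4563 and 2194 CPM in KO CDDO-Me 1 to 4, against 359.8, 559.8, 877 and 616 CPM in KO untreated 1 to 4, and its log2 fold change was 3.31 ± 0.70 (SE, edgeR adjusted p = 0.0917). Both were highest in KO CDDO-Me 1 and 2, and both were called in the 8 KO libraries alone (edgeR adjusted p = 0.0372 and 0.0372). Reads of Saa1 and Saa2, near-identical neighbours on chromosome 7, could be split between them.

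The genes Saa1 and Saa2 stand head to head, and their promoter windows are shown because both genes ranked the 8 libraries in the same order. Capitals mark the C/EBP motif TTGCNNAA, searched on both strands, which 10.8% of all windows hold.
Saa1, chr7:46742931-46743230, minus strand: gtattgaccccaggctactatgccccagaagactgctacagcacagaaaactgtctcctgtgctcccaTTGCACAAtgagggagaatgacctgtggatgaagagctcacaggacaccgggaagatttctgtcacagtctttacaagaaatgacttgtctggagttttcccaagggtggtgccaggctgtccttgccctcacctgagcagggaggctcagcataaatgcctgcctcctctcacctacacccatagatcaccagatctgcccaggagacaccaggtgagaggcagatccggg
Saa2, chr7:46751583-46751882, plus strand: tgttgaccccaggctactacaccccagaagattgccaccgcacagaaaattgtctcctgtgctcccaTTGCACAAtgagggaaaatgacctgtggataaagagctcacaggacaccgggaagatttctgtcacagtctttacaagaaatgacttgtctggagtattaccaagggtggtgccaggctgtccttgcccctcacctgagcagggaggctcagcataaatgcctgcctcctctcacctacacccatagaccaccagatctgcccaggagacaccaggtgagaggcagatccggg
Each window has 1 match with the letters TTGCACAA, 182 bases before the annotated start in Saa1 and 183 in Saa2. Another member, Saa4, which is expressed constitutively, had 417, 432, 407 and 475 CPM in KO CDDO-Me 1 to 4, against 161, 191, 227 and 149 CPM in KO untreated 1 to 4, and its log2 fold change was 1.25 ± 0.24 (SE, edgeR adjusted p = 0.0529). Saa3 went the other way within the list, with a log2 fold change of −2.53 that was not called. Itih4, a relative of Itih3, had 10877, 12569.9, 7970.5 and 6770.1 CPM in KO CDDO-Me 1 to 4, against 1363, 2091, 3168 and 3096 CPM in KO untreated 1 to 4 (1.97 ± 0.37, edgeR adjusted p = 0.0504). Haptoglobin (Hp), which captures free haemoglobin, had 15299, 16251, 10148 and 7061 CPM in KO CDDO-Me 1 to 4, against 2015, 2929, 4669 and 6303 CPM in KO untreated 1 to 4 (1.62 ± 0.46, adjusted p = 0.18). The highest untreated liver, KO untreated 4, was below the lowest treated one, KO CDDO-Me 4.

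The number of members called differed between fits, some of which also had fewer libraries. The cause of these differences was not tested. Without WT DMSO 4, 12 of the 33 were called, all higher (0.448% of all genes tested). In the 8 KO libraries alone 5 were called higher (0.116%), and without the 4 intron-rich libraries 0 (0.0061%). The medians were 1.44, 1.44 and 1.22. DESeq2 called 17 of the 33, all higher (1%). With edgeR, 3 were called higher with the intronic share as covariate (31 of all 16206 genes) and 3 in the KO libraries without untreated 1 and 2 (0.1%). In WT the median of the list was 0.22 and 0 were called in either direction. In 22 of the 33 both KO CDDO-Me 1 and 2 were above both KO CDDO-Me 3 and 4, which was so for 24% of all genes tested and for 8 of the 17 genes that rose (Cyb561, Dnajc12, Fgl1, Isyna1, Itih3, Mt1, Prg4 and Prtn3).

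Of 21 IL-6 and STAT3 response genes, 1 was called, Fgl1, given above among the secreted proteins. DESeq2 called 3 higher, beside 1% of all genes tested, and edgeR without WT DMSO 4 called 3 higher, beside 0.448%. Both called 0 lower, and without the 4 intron-rich libraries edgeR called 0. In 7 of the 21 every treated library was above every untreated one, beside 5.98% of all genes tested. Of the 21, 20 had positive log2 fold changes and the median was 0.54, against 0 called in WT and a median of −0.30. Socs3, the feedback inhibitor of this pathway, had 36.8, 40.4, 56.04 and 229.6 CPM in KO CDDO-Me 1 to 4, against 5.03, 12.7, 31.6 and 4.47 CPM in KO untreated 1 to 4. KO CDDO-Me 4 stood far above the other treated livers, and the groups did not overlap (2.75 ± 0.85, edgeR adjusted p = 0.207). Stat3 itself had 225 to 297 CPM in KO CDDO-Me and 117 to 189 CPM in KO untreated (0.79 ± 0.24, adjusted p = 0.204). Il6ra, the receptor chain, was the 1 member with a negative log2 fold change, at −0.23. Hamp, hepcidin, an iron-regulating hormone under STAT3 control, had 703, 571, 286 and 269 CPM in KO CDDO-Me 1 to 4, against 137, 35.1, 149.8 and 81.5 CPM in KO untreated 1 to 4 (2.18 ± 0.46, adjusted p = 0.0907), and its paralog Hamp2 went the other way with 4.65, 3.35, 4.17 and 7.63 CPM in KO CDDO-Me 1 to 4, against 19.05, 11.8, 17.8 and 22.5 CPM in KO untreated 1 to 4 (−1.84 ± 0.37, adjusted p = 0.075). Hamp2 was called as lower in the 8 KO libraries alone (edgeR adjusted p = 0.0434).

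Of 32 immediate early genes, Atf3 was called, 29 had positive log2 fold changes and the median was 0.62. DESeq2 called 7 higher, beside 1% of all genes tested, and edgeR without WT DMSO 4 called 4 higher, beside 0.448%. Both called 0 lower, and without the 4 intron-rich libraries edgeR called 0. In 7 of the 32 the groups did not overlap, all in the higher direction, beside 5.98% of all genes tested. Junb, an AP-1 subunit, had 58.5, 94.5, 56.5 and 206 CPM in KO CDDO-Me 1 to 4, against 26.5, 21.7, 30.8 and 28.2 CPM in KO untreated 1 to 4 (1.96 ± 0.41, edgeR adjusted p = 0.0777). Btg2, an antiproliferative gene, had 90.9, 108, 93.7 and 181 CPM in KO CDDO-Me 1 to 4, against 51.04, 24.4, 26.3 and 35.7 CPM in KO untreated 1 to 4 (1.78 ± 0.40, adjusted p = 0.096), and Gadd45a, a growth arrest gene, 5.75, 6.84, 4.21 and 16.2 CPM in KO CDDO-Me 1 to 4, against 1.63, 2.08, 2.17 and 1.53 CPM in KO untreated 1 to 4 (2.15 ± 0.58, adjusted p = 0.169). In these 3, as in Cxcl1 and Socs3, KO CDDO-Me 4 was the highest library. Atf3 was highest in KO CDDO-Me 2 (17.4 CPM, against 16.3 CPM in KO CDDO-Me 4). The order of the treated livers was not counted over this list. Myc was the lowest of the list, at −0.82. In WT the median of the list was 0.05 and 0 were called. Of 31 cytokine, chemokine and NF-kB target genes, Cxcl1 was called, 17 were positive and the median was 0.19. Ccl5, a chemokine for T cells, had 0.413 to 0.574 CPM in KO CDDO-Me and 1.12 to 1.92 CPM in KO untreated (−1.58 ± 0.31, adjusted p = 0.0682). Of 7 metallothionein and zinc-handling genes, Mt1 was called, 6 were positive and the median was 0.49.

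**Figure D5:**
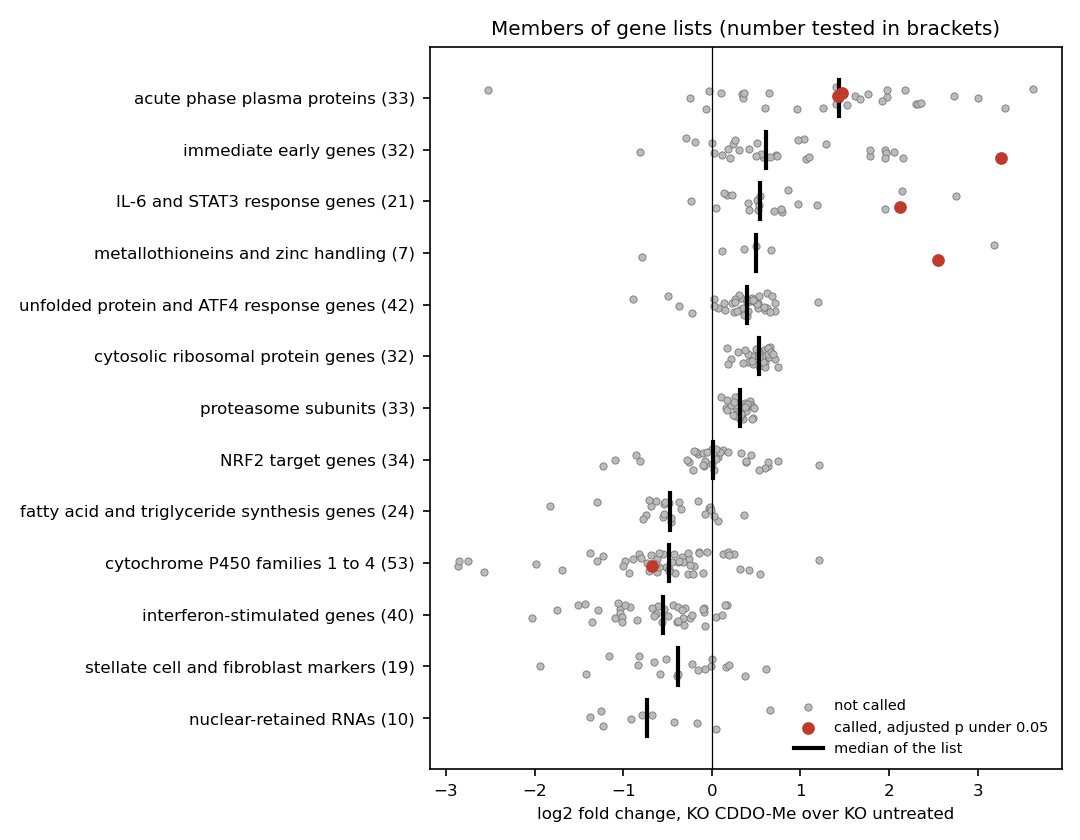
log2 fold change (KO CDDO-Me over KO untreated) of the tested members of 13 gene lists; grey points were not called, red points were called by edgeR at an adjusted p under 0.05, and black bars are list medians. Medians run from 1.44 for acute phase plasma proteins to −0.73 for nuclear-retained RNAs, with NRF2 target genes at 0.01.

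NRF2 target genes showed no call in the KO livers. Of 34, 0 were called in either direction by edgeR, and DESeq2 called 1 higher, beside 1% of all genes tested. In 3 every treated library was above and in 1 below every untreated one, beside 5.98% and 4.5% of all genes tested. An unadjusted edgeR p under 0.05 was reached by 5 higher and 3 lower, beside 6.24% and 9.58% of all genes tested. Of the 34, 19 were positive and the median was 0.01. The median was −0.22 without the 4 intron-rich libraries, −0.17 with the intronic share as covariate and −0.22 in the KO libraries without untreated 1 and 2, with 0 called in each. In WT liver 23 of the 34 were called, all higher (0.555% of all genes tested), with a median of 1.48. The test of the difference called 10 of the 34, all with the lower response in KO, beside 0.13% of all genes tested. Gclc, the catalytic subunit of glutamate-cysteine ligase, had 153, 194, 259 and 199 CPM in KO CDDO-Me 1 to 4, against 209.7, 146, 223 and 192 CPM in KO untreated 1 to 4. The WT libraries held 925 to 1355 CPM in WT CDDO-Me and 218 to 288 CPM in WT DMSO. The KO response minus the WT response was −2.07 ± 0.28 (SE, edgeR adjusted p = 0.00241). Gsta1, an alpha class glutathione transferase, had 0.223 to 0.378 CPM in KO CDDO-Me and 0.203 to 1.41 CPM in KO untreated, and WT libraries held 44.7 to 96.8 CPM in WT CDDO-Me and 3.002 to 4.37 CPM in WT DMSO, a difference in response of −5.405 ± 0.60 (edgeR adjusted p = 0.000517). Hmox1, heme oxygenase 1, had 25.4, 28.5, 24.1 and 51.2 CPM in KO CDDO-Me 1 to 4, against 9.802, 10.9, 17.4 and 17.9 CPM in KO untreated 1 to 4. The groups did not overlap and KO CDDO-Me 4 was the highest, but the gene was not called (log2 1.21 ± 0.65, adjusted p = 0.353). Txnrd1, thioredoxin reductase, had 126, 125, 122 and 148 CPM in KO CDDO-Me 1 to 4, against 70.4, 77.3, 101 and 86.2 CPM in KO untreated 1 to 4, also without overlap and not called (0.63 ± 0.22, adjusted p = 0.24).

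Most cytochromes P450 had negative log2 fold changes. Of 53 tested members of families 1 to 4, edgeR called Cyp2d22 as lower and none as higher. DESeq2 called 6 lower and 1 higher, beside 0.839% and 1% of all genes tested. Without WT DMSO 4, edgeR called 2 lower and 1 higher, beside 0.368% and 0.448%. Of the 53, 45 had negative log2 fold changes and the median was −0.49. In 11 every treated library was below and in 2 above every untreated one, beside 4.5% and 5.98% of all genes tested. Cyp2c40, a member of a cluster of close paralogs on chromosome 19 whose reads could be shared, had 21.8, 16.8, 29.1 and 22.3 CPM in KO CDDO-Me 1 to 4, against 79.1, 84.1, 128 and 314 CPM in KO untreated 1 to 4 (−2.75 ± 0.56, edgeR adjusted p = 0.075). Cyp2c69, of the same cluster, had 6.31, 6.08, 7.68 and 5.78 CPM in KO CDDO-Me 1 to 4, against 11.9, 17.8, 27.1 and 131 CPM in KO untreated 1 to 4 (−2.86 ± 0.67, adjusted p = 0.111). In both, KO untreated 4 was the highest library, and without the 4 intron-rich libraries they stood at −3.27 and −3.59 and were not called (edgeR adjusted p = 0.058 and 0.054). In the KO libraries without untreated 1 and 2 both were called (adjusted p = 0.0127 and 0.0295). Cyp3a13, with 208 to 383 CPM in KO CDDO-Me and 96.8 to 143 CPM in KO untreated, went the other way (1.21 ± 0.26, adjusted p = 0.0907). Of 24 genes of fatty acid and triglyceride synthesis, 0 were called by edgeR or DESeq2, 21 were negative and the median was −0.47. An unadjusted edgeR p under 0.05 was reached by 7, all lower, beside 9.58% of all genes tested. Fasn, fatty acid synthase, had 886, 811, 1556 and 1648 CPM in KO CDDO-Me 1 to 4, against 1869, 2737, 1332 and 2433 CPM in KO untreated 1 to 4, with overlap between groups (−0.77 ± 0.32, adjusted p = 0.281). Mlxipl, the carbohydrate-sensing factor ChREBP, had 139.99, 137, 106 and 164 CPM in KO CDDO-Me 1 to 4, against 531, 499.6, 154 and 156 CPM in KO untreated 1 to 4. Its 2 high values were the intron-rich libraries, and without them its log2 fold change was −0.17 beside −1.29 with them.

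Most interferon-stimulated genes also had negative log2 fold changes. Of 40, 0 were called in either direction by edgeR, and DESeq2 called 2 lower, beside 0.839% of all genes tested. At an unadjusted edgeR p under 0.05 there were 0 higher and 7 lower, beside 6.24% and 9.58%. The median was −0.55 and 36 were negative. In 13 every treated library was below every untreated one, beside 4.5% of all genes tested. Oasl2, an oligoadenylate synthetase-like antiviral protein, had 2.51, 2.73, 2.42 and 2.54 CPM in KO CDDO-Me 1 to 4, against 9.35, 6.61, 7.79 and 10.5 CPM in KO untreated 1 to 4. The groups were 2-fold or more apart at their nearest libraries, and the gene was not called in the fit of 16 (−1.75 ± 0.53, edgeR adjusted p = 0.205). It was called in the 8 KO libraries alone (edgeR adjusted p = 0.0123) and without WT DMSO 4 (adjusted p = 0.0048). Its WT DMSO libraries ranged over 3.01 to 30.99 CPM. Why the fits differed was not tested. Irf7, which amplifies interferon induction and was named after its values were seen, had 19.3, 25.1, 24.2 and 27.7 CPM in KO CDDO-Me 1 to 4, against 33.2, 40.97, 63.4 and 62.6 CPM in KO untreated 1 to 4 (−1.06 ± 0.35, adjusted p = 0.225). Without the 4 intron-rich libraries 0 of the 40 were called and the median was −0.78. In the KO libraries without untreated 1 and 2, 8 were called, all lower, where 0.414% of all genes were, and the median was −0.79. In WT the median of the list was −1.28 and 0 were called.

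Collagens and other stellate cell and fibroblast markers differed between the untreated livers themselves. Of 19, 0 were called by edgeR, 14 were negative and the median was −0.38. DESeq2 called 1 lower, beside 0.839% of all genes tested. At an unadjusted edgeR p under 0.05, 5 were lower, beside 9.58%. Col1a1, collagen I, had 11.9, 16.1, 10.4 and 9.73 CPM in KO CDDO-Me 1 to 4, against 13.9, 20.8, 62.7 and 87.3 CPM in KO untreated 1 to 4. KO CDDO-Me 2 overlapped KO untreated 1, while KO untreated 3 and 4 were several-fold higher (−1.94 ± 0.59, adjusted p = 0.204). Without the 4 intron-rich libraries 0 of the 19 markers were called, and Col1a1 stood at −2.62 (edgeR adjusted p = 0.0605). In the KO libraries without untreated 1 and 2, 4 of the 19 were called, all lower. That fit was added after the data were seen and called 0.414% of all genes lower. Among the 4 were Col1a1 (−2.63, edgeR adjusted p = 0.0127), Col3a1 (−2.03, adjusted p = 0.0127) and Col1a2 (−1.74, adjusted p = 0.0127), the last pair named after their values were seen. Sparc, a collagen-binding matrix protein named after its values were seen, had 33.99, 41.02, 39.98 and 35.4 CPM in KO CDDO-Me 1 to 4, against 38.7, 52.9, 86.7 and 129 CPM in KO untreated 1 to 4, and it was called as lower without the intron-rich libraries of both genotypes (−1.502, adjusted p = 0.0101), as was Plvap, of endothelial cells and likewise named afterwards (−1.05, adjusted p = 0.046). Lrat, which marks quiescent stellate cells, had 13.4 to 22.7 CPM in KO CDDO-Me and 9.599 to 36.8 CPM in KO untreated and was not called against KO untreated 3 and 4 (−0.76, adjusted p = 0.236). The marker list summed to 375 to 542 CPM in KO CDDO-Me and 378 to 943 CPM in KO untreated.

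The medians of some lists differed with and without the intron-rich libraries. All 32 cytosolic ribosomal protein genes and all 33 proteasome subunits had positive log2 fold changes, with medians of 0.53 and 0.32 and 0 called, and these medians were 0.18 and 0.05 without the 4 intron-rich libraries. By DESeq2, 2 and 0 were called higher, beside 1% of all genes tested. An unadjusted edgeR p under 0.05 was reached by 14 and 4, all higher, beside 6.24%. Nuclear-retained RNAs had a median of −0.73 over 10 genes and 0.33 without those libraries. Unfolded protein and ATF4 response genes were positive in 38 of 42, with 0 called by edgeR. Their median of 0.40 became 0.14 without the 4 intron-rich libraries. At an unadjusted edgeR p under 0.05, 7 were higher, beside 6.24% of all genes tested. DESeq2 called 1 higher, beside 1%. Atf4 itself had 59.8 to 82.9 CPM in KO CDDO-Me and 39.4 to 48.1 CPM in KO untreated without overlap (0.62 ± 0.13, edgeR adjusted p = 0.0921), and it stood at 0.75 (adjusted p = 0.0693) without the intron-rich libraries. Of 26 heat shock and chaperone genes Dnajc12 was called, 21 were positive and the median was 0.17, which became −0.05.

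The class II antigen presentation genes H2-Aa and H2-Eb1 were higher in each treated liver than in any untreated one, without a call. H2-Aa had 33.95, 37.4, 33.4 and 37.2 CPM in KO CDDO-Me 1 to 4, against 8.23, 9.27, 14.4 and 26.04 CPM in KO untreated 1 to 4 (1.29 ± 0.32, edgeR adjusted p = 0.134), and H2-Eb1 had 26.3, 28.2, 22.2 and 26.8 CPM in KO CDDO-Me 1 to 4, against 6.91, 6.03, 10.005 and 20.2 CPM in KO untreated 1 to 4 (1.26 ± 0.31, adjusted p = 0.126). KO untreated 4 was the highest untreated library for both. Over the 23 antigen presentation genes, class I included, 13 were positive, the median was 0.01 and 0 were called by edgeR. At an unadjusted edgeR p under 0.05, 6 were higher, beside 6.24% of all genes tested. DESeq2 called 4 higher, beside 1%. The Kupffer cell markers Clec4f (77.7 to 129.6 CPM in KO CDDO-Me and 68.9 to 90.2 CPM in KO untreated) and Adgre1 (33.8 to 46.9 CPM in KO CDDO-Me and 25.2 to 45.97 CPM in KO untreated) were not called (0.41 ± 0.18 and 0.15 ± 0.19, adjusted p = 0.294 and 0.664). Of 46 cell cycle genes, 0 were called by edgeR, 33 were negative and the median was −0.33, in liver taken before regeneration began. At an unadjusted edgeR p under 0.05, 10 were lower, beside 9.58% of all genes tested. DESeq2 called 1 lower, beside 0.839%. Uhrf1, which maintains DNA methylation at replication, had 0.283, 0.239, 0.765 and 1.51 CPM in KO CDDO-Me 1 to 4, against 1.78, 2.56, 2.55 and 2.39 CPM in KO untreated 1 to 4 (−1.69 ± 0.48, adjusted p = 0.18).

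Overlap of annotated genes limits some of these values. Of the 20 called genes named here, 8 overlap another gene of the table, 6 of them on the opposite strand, and the libraries were directional but no source used here gives the strand setting of the counting. None of the overlapping genes that were tested was called. Gm9910 (at Cyb561), 1700071M16Rik (at Pla2g7), Plppr3 (at Prtn3) and Serpina3l-ps (at Serpina3m) were not tested. Kng2 overlaps the pseudogene Gm6493 on its own strand, which averaged 23.5 CPM in KO CDDO-Me and 9.52 CPM in KO untreated. Tpr, on the strand opposite to Prg4, had a log2 change of 0.10 (edgeR adjusted p = 0.664).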

How the data were processed

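The study measured liver RNA of 16 mice by sequencing after ribosomal RNA depletion, in 4 groups of 4; the 8 Nrf2-null libraries are described here. The submitters' processing notes name TopHat2 2.1.0, HTSeq 0.6.1p1 and cutadapt 1.2.1, besides DESeq2, CASAVA 1.8.2 and the build GRCm38.p5, with no role stated. The deposited read counts per gene are whole numbers for 33730 Ensembl IDs, with 0 columns of other samples. The deposited FPKM values equal count over gene length and library total (largest relative deviation 8.9e-07, checked on the file). Of the IDs, 33629 took symbols and positions from GENCODE M21 (GRCm38), and 101 did not match. No pair of KO libraries looked duplicated (lowest chi-square per degree of freedom 16.7). That lowest pair was KO CDDO-Me 1 and 2. Against KO CDDO-Me 3 and 4, library 1 stood at 127.5 and 125.1 and library 2 at 114.5 and 111.5. KO CDDO-Me 3 and 4 stood at 55.65 to each other.

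The main test was edgeR 4.0.16 (R 4.3.3) with quasi-likelihood, TMM scaling and filterByExpr on all 16 libraries (12 residual degrees of freedom), with Benjamini-Hochberg adjustment over 16206 genes. Columns were matched to samples by name. Alternatives used limma 3.58.1, DESeq2 1.42.0, other filters, other scalings and left-out libraries. Tests were run on simulated data first. The gene lists (47, of whose 1241 entries 15 were not found) and the members were chosen with earlier results of these data known. The text names the NRF2 panel, every called gene but 1 that is not reported here (it remains in the counts), of each list the called members and up to 4 more by lowest p, leading calls of the 8 KO libraries alone, and cell type markers. Counts limit precision for genes at a few reads.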

Additional observations from a re-analysis of the deposited data

Results flagged for a closer look

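In 115 named genes, each KO group of 4 with at least 10 counts in some library was searched for a library far from the other 3 by Dixon's test at 95%, which chance gives in about 1 of 20 groups. Of the 220 group values, 8 met this, in CPM. In KO CDDO-Me these were Hmox1 at 51.2 in library 4 (others 24.1 to 28.5), Socs3 at 229.6 in library 4 (others 36.8 to 56.0), Rpl32 at 133.7 in library 3 (others 94.0 to 97.3) and Serpinh1, a collagen chaperone, at 9.51 in library 1 (others 11.1 to 11.3). In KO untreated they were Cyp2c69 at 131.1 in library 4 (others 11.9 to 27.1), H2-DMb1 at 4.22 in library 4 (others 1.47 to 1.79), Krt19 at 1.46 in library 3 (others 0.813 to 0.869) and Ugdh at 48.9 in library 1 (others 71.9 to 76.6). KO CDDO-Me 4 gave 2 of the 8 and KO untreated 4 gave 2. None of these genes was called by edgeR between the groups.

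The response to CDDO-Me differed between genotypes by the edgeR test of the difference (KO response minus WT response, log2 scale) for 6 named genes. The differences were −5.405 for Gsta1 (edgeR adjusted p = 0.000517), −3.365 for Gsta2 (0.0024), −3.005 for Gm24830 (0.0175), −2.58 for Nqo1 (0.0183), −2.15 for Srxn1 (0.0161) and −2.07 for Gclc (0.0024). Gm24830 was lower with the drug in all 4 KO libraries, and its WT libraries held 7.94 to 22.3 CPM in WT CDDO-Me and 3.67 to 8.12 CPM in WT DMSO. KO was measured against untreated and WT against injected mice, so genotype and solvent cannot be told apart in these differences.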

How the results depend on the processing

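The count of 21 called genes was sensitive to the settings, and the signs of these genes were not. The count was 24 with RLE scaling, 26 at a mean CPM of at least 1, 22 in the 8 KO libraries alone and 23 with a robust spread. It was 298 with DESeq2, 86 with the intronic share as covariate, 55 and 67 with limma on log2(FPKM + 0.1) and log2(FPKM + 1), 51 with no filter, 1823 with voom quality weights, 4 without the intron-rich libraries (KO untreated 1 and 2, WT DMSO 1 and 2), and 82 in the KO libraries without KO untreated 1 and 2 (chosen after seeing the data). Leaving out 1 library gave 4 to 133 called genes, the lowest without KO untreated 2 and the highest without WT DMSO 4. The covariate gave 31 higher and 55 lower and the limma fits 29 and 26 and 35 and 32, where 17 and 4 were found here. On the limma scales the median of all genes was −0.22 and −0.13. The replicate numbers of the titles were not shown to pair animals: deviations of same-numbered KO libraries correlated at 0.0466, −0.174, 0.346 and −0.454. With a replicate block 46 genes were called, and within the 8 KO libraries 0 (edgeR, 2474 at an unadjusted p under 0.05). The differences in RNA class shares kept their sign, but the sense-intronic and TEC difference of −0.274 percentage points was −0.127 without KO untreated 1, the haemoglobin difference of 0.0242 was 0.0093 without KO CDDO-Me 2, and the mitochondrial difference of −0.384 was −0.255 without KO CDDO-Me 2 and −0.249 without KO untreated 4. Among list members that the tests did not call, signs also turned for genes away from 0 without the 4 intron-rich libraries, as for Meg3 (−1.25 to 0.37), Airn (−1.23 to 0.14), Malat1 (−0.78 to 0.29) and Klf4 (0.51 to −0.14). Of the named genes, 6 reversed, none of them called. Adgre1 became −0.0163 and −0.0151 in the limma fits, −0.15 in the KO libraries without untreated 1 and 2 and −0.1455 without the 4 intron-rich libraries. Alb became −0.17 with the covariate and −0.2619 and −0.2576 in those smaller fits, and with 1 library left out it ran from −0.0158 to 0.491. Cd3e became 0.27 with voom weights and ran from −0.342 to 0.00228 with 1 library left out. Epcam became −0.45 with the covariate, −0.1166 and −0.0444 with limma, −0.1293 and −0.1265 in the smaller fits, −0.0697 with the replicate block and −0.1089 with voom, and ran from −0.158 to 0.416. Gclc became −0.1478 and −0.1455 with limma and −0.0254 and −0.0211 in the smaller fits, and ran from −0.0763 to 0.175. Pecam1 ran from −0.223 to 0.0665 with 1 library left out. The cause of these changes was not tested. Genes with fewer than about 10 reads per library, such as Elane and Igf2bp3 in KO CDDO-Me, limit what the depth can show.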
